A study of Mus musculus with 25 samples.

Results

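The extracellular matrix genes of fibroblasts were examined in cultures of neonatal mouse cardiac myocytes. Of 45 genes chosen by name, 43 had a probe set of their own among the 35557 probe sets of the array, and each of the 43 had exactly 1. Fbn1 had no probe set carrying its symbol alone, Loxl2 had one shared with another gene, and neither was analysed here. The genes cover 5 fibrillar collagens, 6 network and fibril-associated collagens, 7 basement membrane genes, 7 genes of elastic fibres and crosslinking, 6 adhesive and matricellular genes, 4 proteoglycans, 5 matrix proteases and inhibitors, the collagen chaperone Serpinh1, and the receptors Pdgfra and Ddr2.

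The heart's matrix is laid down mainly by fibroblasts. They secrete procollagens, which are folded with the help of the chaperone HSP47 (Serpinh1), assembled into fibrils and crosslinked by lysyl oxidases, while small proteoglycans such as decorin and lumican bind the fibrils and set their spacing. Collagen IV, laminins and nidogen form the basement membrane that surrounds each myocyte, and metalloproteinases with their tissue inhibitors (TIMPs) govern turnover. Fibronectin, periostin and tenascin-C are known as matrix proteins of the injured and remodelling heart.

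RNA was taken from 7 cultures of transgenic (TG) myocytes with serum, 7 of wild type (WT) myocytes with serum, 6 of TG myocytes without serum and 5 of WT myocytes without serum. TG mice overexpress CHF1/Hey2, a basic helix-loop-helix repressor, in the myocardium from the mlc2v promoter, a promoter of ventricular myocytes. Serum means 20% fetal bovine serum for 24 hours, given to myocytes kept in serum free medium until then. The cultures, called independent in the study's methods, are the replicates, and the culture is the unit of every test below. Hey2 lay at 7.94 to 9.36 in TG against 6.59 to 7.36 in WT cultures with serum, and at 7.08 to 8.55 in TG against 6.12 to 6.37 in WT cultures without serum (log2 intensity), so that every library went with its genotype label. The 14 arrays with serum and the 11 without lay on different scales, with a median SD over probe sets of 2.57 against 2.12 log2 units and lowest values of 0.99 to 1.21 against 2.45 to 2.66. TG and WT were therefore compared within each set of arrays on the deposited log2 values. Serum was compared only by rank within an array, and serum and the set of arrays cannot be told apart.

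Markers of other cells were measured on the same arrays. All 17 cardiac myocyte markers lay above the median probe set in each of the 4 groups, led by the cardiac actin Actc1. Of 17 fibroblast markers, 15 were above the median in TG and in WT cultures with serum and 16 in TG and in WT cultures without serum. They include 8 of the matrix genes themselves, Vim was the highest of them, and Fap, a protease of activated fibroblasts, was the lowest at the 14.1th to 14.7th percentile. In TG cultures with serum 10 of 12 endothelial, 8 of 9 smooth muscle, 9 of 10 epicardial and 8 of 10 macrophage markers were also above the median, and in WT cultures with serum 11, 8, 9 and 8 were. Without serum the counts in the same order were 6, 9, 9 and 7 in TG cultures and 6, 9, 9 and 6 in WT cultures. The values are of bulk RNA, in which fewer cells of a type and less RNA per cell cannot be told apart.

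Matrix genes were among the brightest probe sets of these myocyte cultures. The percentile of a probe set, the percentage of probe sets on the same array that it reached or exceeded, averaged 89.2 for the median gene of the 43 over 25 arrays. Of the 43 genes, 42 were above the 50th percentile, 36 above the 75th, 21 above the 90th, 12 above the 95th and 2 above the 99th. The 2 genes above the 99th were Sparc (99.5), which encodes the collagen-binding protein osteonectin, and Col1a1 (99.2), the major chain of collagen I. Lum, encoding lumican, was alone below the median, with a mean of 45.4 and values of 27.4 to 63.1. Such an order describes intensity and also depends on how well each probe set binds, so that neighbouring genes are not ranked by it.

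**Figure D1:**
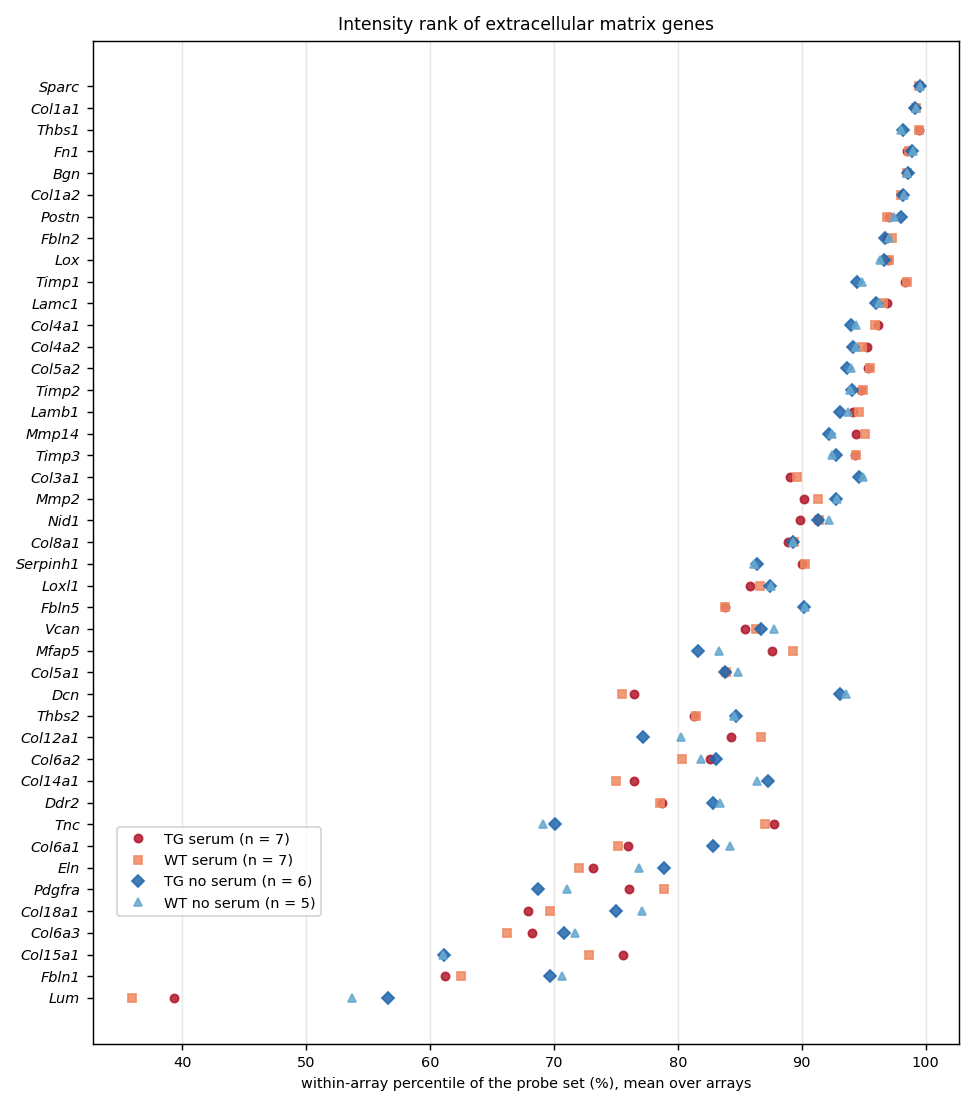
Mean within-array percentile (x axis, %) of the 43 matrix genes (y axis, ordered by their mean over 25 arrays) in TG and WT cultures with serum and in TG and WT cultures without serum (symbols, n = 7, 7, 6 and 5). Sparc and Col1a1 lie above the 99th percentile, and Lum lies lowest, at 39.4 and 36.0 in TG and WT cultures with serum and at 56.6 and 53.7 in TG and WT cultures without serum.

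Among the fibrillar collagens the mean percentile ran from 84.1 for Col5a1, a chain of collagen V that starts fibrils, to 99.2 for Col1a1. Col1a1 had percentiles of 98.9, 99.2 and 99.4 (lowest, median and highest) in TG and 98.8, 99.3 and 99.6 in WT cultures with serum. Without serum it had 98.9, 99.2 and 99.4 in TG cultures, against 99.5, 99.4, 99.0, 98.7 and 99.5 in the 5 WT cultures. The ranges of the 4 groups all overlapped.

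The adhesive and matricellular genes had the highest median of any role, 98.0, and ran from Tnc (79.6) to Sparc (99.5). Fn1 encodes fibronectin, onto which collagen fibrils assemble, and had percentiles of 97.8, 98.5 and 99.0 in TG and 97.7, 98.9 and 99.3 in WT cultures with serum. Without serum it had 98.4, 98.9 and 99.4 in TG cultures, against 99.5, 99.2, 98.6, 98.2 and 99.5 in WT cultures. Postn encodes periostin, a product of activated fibroblasts, and had 96.3, 97.1 and 98.2 in TG and 94.3, 97.6 and 98.5 in WT cultures with serum. Its values without serum were 97.0, 98.1 and 98.6 in TG cultures, against 98.8, 98.1, 96.5, 94.9 and 99.0 in WT cultures. For both genes the WT range enclosed the TG range in each set.

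The other roles differed in their spread. Basement membrane genes had a median of 93.9, from Lamc1 (96.5), the laminin gamma chain, to Col15a1 (68.4). Genes of elastic fibres and crosslinking had a median of 86.6, with Fbln2 and the lysyl oxidase Lox at the upper end (97.0 and 96.8) and Fbln1 at the lower (65.5). Network and fibril-associated collagens had a median of 81.3 and ran from Col6a3 (69.0) to Col8a1 (89.2). Proteoglycans held both biglycan (Bgn, 98.5) and lumican. Proteases and their inhibitors kept to a narrow band of 91.7 to 96.8, with the membrane-bound metalloproteinase Mmp14, the gelatinase Mmp2, which it activates, and the inhibitors Timp1, Timp2 and Timp3.

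The first comparison asked whether overexpression of CHF1/Hey2 changed the matrix genes. None of the 43 passed the test in either set at an adjusted p under 0.05 (limma, Benjamini-Hochberg over 35557 probe sets), where 0.00844% of all probe sets passed with serum and 0% without. At an unadjusted p under 0.05 there was 1 of 43 with serum, against 10.7% of all probe sets, and 0 of 43 without serum, against 5.64%. With serum, 14 genes had a higher and 29 a lower mean in TG than in WT cultures, with a median difference of -0.03 log2 units beside -0.02 over all probe sets. Without serum 12 were higher and 31 lower, with a median of -0.05 beside -0.01. The sign of either median rested on single cultures. With serum it was 0.02 without WT culture 3. Without serum it was 0.06 without WT culture 5, 0.05 without WT culture 1 and -0.19 without WT culture 4. For no matrix gene did the TG and WT cultures of a set separate without overlap. Among all probe sets, 0.101% lay wholly above and 0.155% wholly below with serum, and 0.172% and 0.231% without serum.

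**Figure D2:**
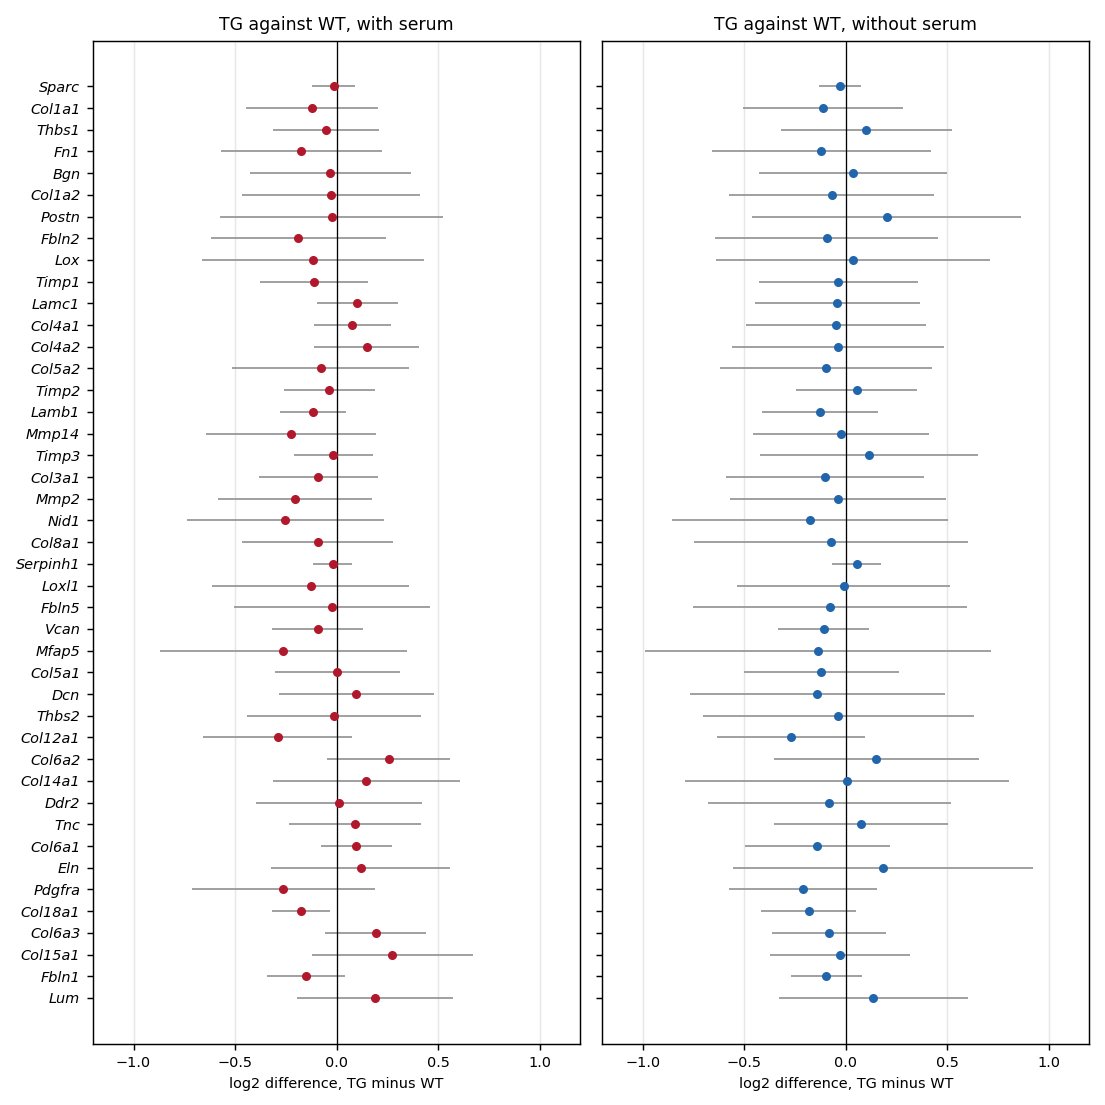
Difference of TG minus WT in log2 units (x axis) for the 43 matrix genes with serum (left, 7 against 7 cultures) and without serum (right, 6 against 5 cultures), with points for the limma estimate and bars for its 95% confidence interval. With serum the interval of Col18a1 alone leaves out 0, and all estimates lie between -0.29 and 0.27 with serum and between -0.27 and 0.20 without.

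The gene that came closest was Col18a1, encoding the basement membrane collagen from which endostatin is cut. With serum its log2 values were 6.70, 6.90 and 7.05 (lowest, median and highest) in TG and 6.98, 7.01 and 7.27 in WT cultures. Most TG cultures lay below the WT cultures, but the ranges overlapped. The difference was -0.17 (95% interval -0.32 to -0.03, unadjusted p = 0.0212, limma adjusted p = 0.393). Without serum its values were 6.97, 7.09 and 7.37 in TG cultures, against 7.46, 7.09, 7.23, 7.18 and 7.66 in WT cultures. This gave a difference of -0.18 (-0.42 to 0.05, limma adjusted p = 0.887).

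Col12a1, a fibril-associated collagen, also had a lower mean in TG cultures in both sets without passing the test. With serum it had log2 values of 8.19, 8.38 and 9.13 in TG and 8.30, 8.71 and 9.43 in WT cultures, a difference of -0.29 (-0.66 to 0.08). Without serum it had 6.97, 7.28 and 7.94 in TG cultures, against 7.61, 7.71, 7.43, 7.38 and 7.92 in WT cultures, a difference of -0.27 (-0.63 to 0.09). The ranges overlapped in both sets. Fbln1, an elastic fibre glycoprotein, had 6.13, 6.22 and 6.33 in TG and 6.11, 6.38 and 6.72 in WT cultures with serum. Its values without serum were 6.60, 6.63 and 6.79 in TG cultures, against 7.00, 6.60, 6.58, 6.66 and 6.90 in WT cultures. In both sets the WT range enclosed the TG range, and the differences were -0.15 (-0.34 to 0.04) with serum and -0.10 (-0.27 to 0.08) without.

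The collagen VI chains form beaded filaments around cells. With serum Col6a1, Col6a2 and Col6a3 had higher means in TG than in WT cultures. Without serum Col6a2 was again higher (7.93 in TG and 7.78 in WT cultures), whereas Col6a1 (7.88 in TG, 8.02 in WT) and Col6a3 (6.76 in TG, 6.84 in WT) had lower means in TG cultures. With serum, Col6a2 had log2 values of 7.72, 8.49 and 8.58 in TG and 7.77, 8.05 and 8.39 in WT cultures, a difference of 0.26 (-0.05 to 0.56). Col6a3 had 6.67, 6.90 and 7.27 in TG and 6.54, 6.65 and 7.24 in WT cultures, a difference of 0.19 (-0.06 to 0.44). Neither passed the test, with limma adjusted p-values of 0.529 and 0.566.

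Without serum the genes next in order were Pdgfra and Vcan. Pdgfra encodes the platelet-derived growth factor receptor alpha of fibroblasts and had log2 values of 6.11, 6.61 and 6.95 in TG cultures, against 7.04, 6.78, 6.66, 6.29 and 7.12 in WT cultures. Vcan, encoding the large proteoglycan versican, had 8.19, 8.21 and 8.61 in TG cultures, against 8.57, 8.36, 8.30, 8.25 and 8.66 in WT cultures. Both had a lower mean in TG cultures, by estimates of -0.21 (-0.58 to 0.15) and -0.11 (-0.33 to 0.11), within overlapping ranges.

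Col1a1, Fn1, Postn and Col3a1 did not pass either. Col1a1 differed by -0.12 (-0.45 to 0.20) with serum and by -0.11 (-0.50 to 0.28) without, and Fn1 by -0.17 (-0.57 to 0.22) and -0.12 (-0.66 to 0.42). Postn differed by -0.02 (-0.57 to 0.53) with serum and by 0.20 (-0.46 to 0.86) without, and Col3a1 by -0.09 (-0.38 to 0.21) and -0.10 (-0.59 to 0.38). Over the 43 genes the intervals reached from -0.87 to 0.67 with serum and from -0.99 to 0.92 without, the widest belonging to Mfap5, a microfibril protein. Single genes had narrower intervals, that of Sparc with serum reaching from -0.12 to 0.09. A difference that lies within the interval of its own gene is not excluded by this number of arrays.

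Genes that make, hold or cut the matrix outside this group gave the same count. Of 21 collagen processing genes, 26 other collagens, 25 matrix receptors, 18 other proteases and inhibitors and 11 fibroblast activation genes, 0 passed in either set at an adjusted p under 0.05. Of the other collagens, 19 of 26 had a lower mean in TG cultures with serum and 24 of 26 without, with medians of -0.09 in both sets. Over all probe sets 56.5% and 54.7% had a lower mean. At an unadjusted p under 0.05, 4 of 26 were lower with serum and 7 of 26 without, where 6.31% and 3.33% of all probe sets were, and nothing particular to these collagens is read from this. The 3 with the smallest p without serum were Col9a3 (-0.22), Col8a2 (-0.14) and Col27a1 (-0.12). Of the cell type markers, 16 of 17 myocyte genes had a higher mean (median 0.29) and 12 of 12 endothelial genes a lower mean (median -0.27) in TG than in WT cultures with serum, none past the adjusted test. Their part in the matrix values was not tested.

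The second comparison was of serum against no serum. By rank, 10 matrix genes rose and 8 fell with serum in TG cultures, and 9 rose and 10 fell in WT cultures (limma on rank-matched log2 values, adjusted p under 0.05). Among all probe sets, 61.4% passed in TG cultures (30.6% rose, 30.8% fell) and 59.5% in WT cultures (29.6% rose, 29.9% fell), and no count of matrix genes exceeded the share of its background. Rank-matched values replace each value by the value that its rank has in 1 distribution common to all 25 arrays. On the deposited scale instead, which differs between the sets, 21 rose and 6 fell in TG cultures and 22 rose and 7 fell in WT cultures. The direction of the matrix genes as a group therefore depends on the scale, their median difference being -0.06 in TG and -0.11 in WT cultures by rank and 0.41 and 0.37 on the deposited scale. Over all probe sets the median was 0.01 in each genotype by rank, and 0.11 in TG and 0.12 in WT cultures on the deposited scale. By rank the sign of the matrix median also turned with 1 culture left out, to 0.01 in TG cultures without TG culture 6 of the set without serum, and in WT cultures to 0.01 without WT culture 6 of the set with serum and 0.0050 without WT culture 5 of the set without serum.

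Within the group, 9 genes rose in both genotypes, 8 fell in both, 3 passed in 1 genotype and 23 in neither. Of all probe sets, 25.9% rose and 26.4% fell in both genotypes, and neither count of matrix genes exceeded that share. Those that rose were Tnc, Timp1, Col15a1, Thbs1, Col12a1, Pdgfra, Mmp14, Serpinh1 and Col4a1. Those that fell were Dcn, Col14a1, Lum, Col3a1, Fbln5, Col6a1, Fbln1 and Col18a1. The groups with and without serum did not overlap in percentile for 6 of the risen and 8 of the fallen genes in TG cultures, where 16.7% and 18.5% of all probe sets separated in that way. In WT cultures this held for 5 and 4 genes, where 17.1% and 18.8% of all probe sets did so.

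**Figure D3:**
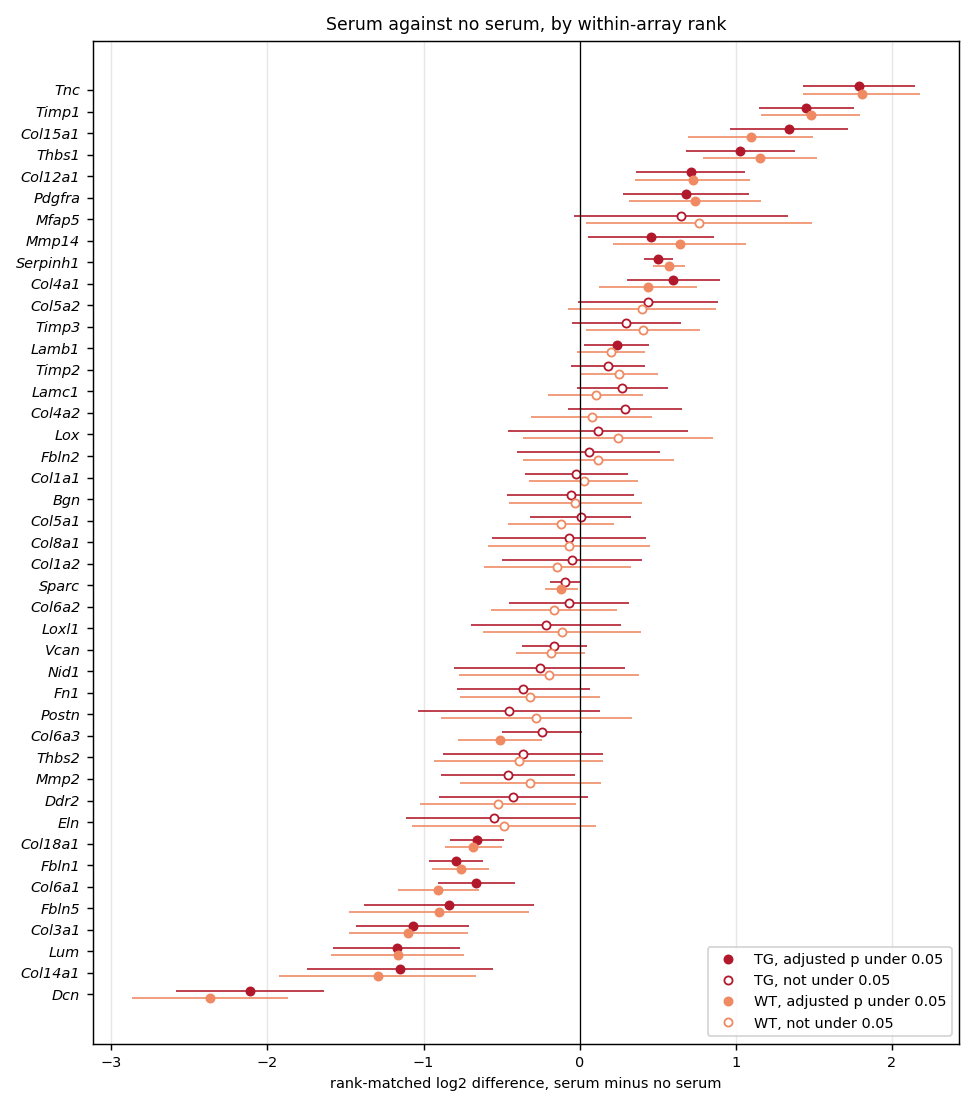
Rank-matched log2 difference of serum minus no serum (x axis) for the 43 matrix genes (y axis, ordered by the mean of both genotypes) in TG and WT cultures, with 95% confidence intervals and filled symbols where the adjusted p was under 0.05. Tnc lies highest at 1.79 in TG and 1.80 in WT cultures, and Dcn lowest at -2.11 and -2.37.

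Tnc, encoding tenascin-C, rose most. Its percentiles with serum were 86.2, 88.1 and 89.5 in TG cultures, against 66.2, 70.6 and 73.2 in TG cultures without serum. WT cultures had 83.8, 86.2 and 91.8 with serum, against 71.8, 69.2, 65.9, 63.3 and 75.6 without. Every culture with serum lay above every culture without it. The rank-matched difference was 1.79 ± 0.17 in TG cultures (SE, limma adjusted p = 3.78e-09) and 1.80 ± 0.18 in WT cultures (limma adjusted p = 8.85e-09).

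Timp1, an inhibitor of metalloproteinases, rose by 1.45 ± 0.15 in TG and by 1.48 ± 0.15 in WT cultures. Its percentiles with serum were 98.1, 98.4 and 98.8 in TG cultures, against 92.6, 94.7 and 96.1 in TG cultures without serum. WT cultures had 97.9, 98.5 and 99.0 with serum, against 94.3, 95.7, 94.8, 93.7 and 95.8 without. The groups did not overlap in either genotype.

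Col15a1, a collagen of the basement membrane zone, had percentiles of 68.4, 76.6 and 80.9 in TG cultures with serum, against 56.8, 61.1 and 66.1 in TG cultures without. In WT cultures it had 69.5, 71.8 and 80.5 with serum, against 64.6, 57.3, 58.8, 59.4 and 65.2 without. The rise was 1.34 ± 0.18 in TG and 1.09 ± 0.19 in WT cultures, again without overlap. Thbs1 encodes thrombospondin-1, an activator of latent TGF-beta, and had 99.3, 99.4 and 99.6 in TG cultures with serum, against 97.7, 98.0 and 99.0 in TG cultures without. Its WT values were 99.2, 99.4 and 99.7 with serum, against 98.8, 97.5, 97.4, 97.5 and 99.0 without, and the rise was 1.03 ± 0.17 in TG and 1.16 ± 0.18 in WT cultures.

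The other risen genes moved by less. Col12a1 rose by 0.71 in TG and 0.72 in WT cultures, Pdgfra by 0.68 and 0.74, Mmp14 by 0.46 and 0.64, Serpinh1 by 0.50 and 0.57 and Col4a1 by 0.60 and 0.44. Serpinh1 had the smallest error of them, with an SE of 0.05 in each genotype and a limma adjusted p of 1.61e-09 in TG and 5.45e-10 in WT cultures. Mmp14 in TG cultures was just inside the threshold (limma adjusted p = 0.0467).

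Among the genes that fell, Dcn, encoding decorin, moved furthest. It had percentiles of 73.8, 76.7 and 79.0 in TG cultures with serum, against 90.1, 93.6 and 95.3 in TG cultures without. In WT cultures it had 69.0, 76.7 and 81.7 with serum, against 95.7, 95.2, 92.0, 88.6 and 96.3 without. No culture with serum reached the lowest culture without it. The fall was -2.11 ± 0.23 in TG (limma adjusted p = 2.74e-08) and -2.37 ± 0.24 in WT cultures (limma adjusted p = 1.11e-08).

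Lum, the neighbour of Dcn in the genome and a proteoglycan of the same family, had percentiles of 34.0, 40.3 and 45.2 in TG cultures with serum, against 54.2, 56.0 and 60.0 in TG cultures without. WT cultures had 27.4, 37.3 and 47.2 with serum, against 60.0, 49.8, 51.4, 44.3 and 63.1 without. The groups separated in TG cultures, and in WT cultures they overlapped. The differences were -1.17 ± 0.20 in TG and -1.17 ± 0.21 in WT cultures. Lum is dim on these arrays, with a mean over 25 arrays under the log2 limit of 5 used for dim probe sets. The serum comparisons repeated with dim probe sets left out therefore do not cover it. Col14a1, a fibril-associated collagen that binds decorin, had 71.2, 76.8 and 80.3 in TG cultures with serum, against 84.3, 86.6 and 90.8 in TG cultures without. Its WT values were 69.6, 75.5 and 84.8 with serum, against 93.9, 86.7, 80.1, 78.3 and 92.9 without, where the ranges overlapped. It differed by -1.15 ± 0.29 in TG and by -1.29 ± 0.30 in WT cultures.

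Col3a1, the collagen III chain that forms fibrils together with collagen I, was the only fibrillar collagen that passed. Its percentiles were 86.4, 89.4 and 90.2 in TG cultures with serum, against 93.4, 94.8 and 95.6 in TG cultures without. WT cultures had 87.3, 89.0 and 92.7 with serum, against 96.9, 94.5, 93.7, 92.5 and 96.9 without, which overlapped at 1 end. The differences were -1.07 ± 0.18 in TG and -1.10 ± 0.18 in WT cultures. For Col1a1 the estimate was -0.02 (-0.35 to 0.31) in TG and 0.02 (-0.32 to 0.37) in WT cultures, and for Fn1 -0.36 (-0.79 to 0.06) and -0.32 (-0.77 to 0.13). Postn gave -0.45 (-1.03 to 0.13) in TG and -0.28 (-0.89 to 0.33) in WT cultures.

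**Figure D4:**
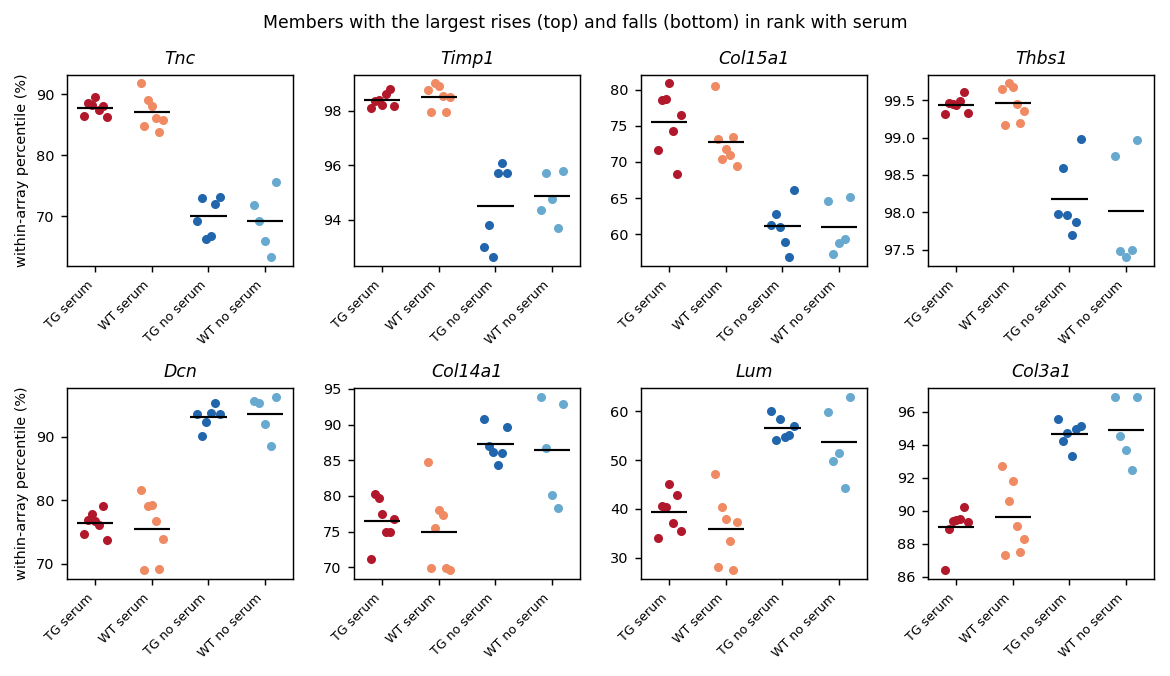
Within-array percentile (y axis, %, a separate range in each panel) of every culture for the 4 matrix genes with the largest rises (top) and the 4 with the largest falls (bottom) with serum, in TG and WT cultures with serum and TG and WT cultures without, with lines at the group means. Tnc averages 87.8 in TG and 87.1 in WT cultures with serum, against 70.1 and 69.1 without, and Dcn averages 76.4 and 75.5 with serum, against 93.1 and 93.6 without.

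Related or neighbouring matrix genes did not always pass the test together. Of the 4 pairs of matrix genes that RefSeq places next to each other, Dcn and Lum both fell, whereas in each of the other pairs 1 gene passed and its neighbour did not. Col3a1 fell and Col5a2, encoding a chain of collagen V, had estimates of 0.44 in TG and 0.40 in WT cultures. Col6a1 fell (-0.66 in TG and -0.90 in WT cultures) and Col6a2 had -0.07 and -0.17. Col4a1 rose, and Col4a2, which is transcribed from the same promoter region in the opposite direction, had 0.29 in TG and 0.08 in WT cultures. The difference between the 2 members of a pair was not tested. Of the basement membrane genes, Col15a1 and Col18a1, close relatives, passed in opposite directions.

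Of the 3 genes that passed in 1 genotype, Lamb1, a laminin beta chain, rose by 0.24 in TG cultures (limma adjusted p = 0.0440) with 0.20 in WT cultures (0.101). Sparc had -0.09 in TG cultures (0.0966) and fell in WT cultures (-0.12, limma adjusted p = 0.0486), and Col6a3 had -0.24 in TG cultures (0.0956) and fell in WT cultures (-0.51, limma adjusted p = 0.00164). The genotypes were not shown to differ in their response to serum. In the interaction test (limma) 0 of 43 matrix genes passed at an adjusted p under 0.05, as did 0% of all probe sets. Before adjustment 0 of 43 had a p under 0.05, against 4.58% of all probe sets.

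Promoters could be read for 29 of the 43 genes, as the 250 bases before the outermost annotated start (RefSeq, GRCm38.p6). They were searched on both strands for CCAAT boxes (CCAAT), which occur in the promoters of collagen I genes, for AP-1 sites (TGANTCA) and CArG boxes, both known from serum-responsive genes, and for the E-boxes CACGTG or CACGCG, letters that HEY proteins are known to bind. A CCAAT box stood in 12 of 29 promoters (41.4%, against 34.5% of 27025 promoters of all genes), an AP-1 site in 1 (3.45%, against 6.85%), a CArG box in 0 (0%, against 1.41%) and such an E-box in 3 (10.3%, against 13.0%). Of the genes that rose in both genotypes, 7 had a promoter here, with CCAAT in 3 and neither an AP-1 site nor an E-box in any. Of those that fell in both, 5 had one, with CCAAT in 2, an AP-1 site in 1 and an E-box in 2. Shown are 2 promoters of genes that rose, Timp1 and Col15a1, and 2 of genes that fell, Col6a1 and Fbln5, the last being the promoter with most matches. Capitals mark the matches, which do not overlap each other. The sequences run 5′ to 3′ on the gene's strand at chrX:20869916-20870165 (+, Timp1), chr4:47207762-47208011 (+, Col15a1), chr10:76726045-76726294 (-, Col6a1) and chr12:101819120-101819369 (-, Fbln5).
Timp1: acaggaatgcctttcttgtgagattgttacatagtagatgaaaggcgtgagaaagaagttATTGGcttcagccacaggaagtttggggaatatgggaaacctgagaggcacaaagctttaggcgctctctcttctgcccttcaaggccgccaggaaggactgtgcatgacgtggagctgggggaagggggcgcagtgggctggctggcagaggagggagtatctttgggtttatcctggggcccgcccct
Col15a1: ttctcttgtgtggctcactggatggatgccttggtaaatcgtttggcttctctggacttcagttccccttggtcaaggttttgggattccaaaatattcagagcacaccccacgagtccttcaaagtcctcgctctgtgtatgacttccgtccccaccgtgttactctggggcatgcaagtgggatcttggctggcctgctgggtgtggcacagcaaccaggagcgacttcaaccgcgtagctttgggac
Col6a1: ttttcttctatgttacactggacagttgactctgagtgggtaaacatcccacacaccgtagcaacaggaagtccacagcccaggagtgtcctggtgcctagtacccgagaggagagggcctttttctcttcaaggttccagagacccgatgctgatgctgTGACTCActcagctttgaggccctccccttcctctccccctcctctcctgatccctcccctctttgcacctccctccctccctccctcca
Fbln5: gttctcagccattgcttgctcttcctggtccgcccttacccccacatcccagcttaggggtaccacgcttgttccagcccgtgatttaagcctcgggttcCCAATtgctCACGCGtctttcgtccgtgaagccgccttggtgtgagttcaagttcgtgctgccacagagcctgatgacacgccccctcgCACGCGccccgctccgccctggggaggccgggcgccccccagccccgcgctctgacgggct
In Timp1 the CCAAT box lies on the opposite strand and starts 190 bases before the start site, and the Col15a1 window held none of the letters searched. Col6a1 had an AP-1 site 90 bases before its start, the only one among the 29. Fbln5 had a CCAAT box at 150 and E-boxes at 141 and 61 bases before its start. A match is a description of these letters alone.

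Matrix genes outside the group were also compared by rank. The shares of all probe sets that rose or fell, given above for each genotype (30.6% and 30.8% in TG, 29.6% and 29.9% in WT cultures), are the background of the lists that follow, and nothing particular to a list is read from its count. Of 26 other collagens, 3 rose and 19 fell in TG and 4 rose and 16 fell in WT cultures. Col8a2, the partner chain of Col8a1, fell (-1.85 in TG and -2.04 in WT cultures), to the 51.1th percentile in TG cultures with serum against 72.1 without, and to 50.6 in WT cultures against 73.8. Col25a1 fell too (-1.15 and -1.07). Of 18 other proteases and inhibitors, 3 rose and 11 fell in TG and 3 rose and 10 fell in WT cultures, with the inhibitor Timp4 at -1.06 and -0.97 and the gelatinase Mmp9 at -0.63 and -0.65. Timp4 is dim on these arrays, at the 21.1th percentile in TG cultures with serum against 40.4 without, and at 21.7 in WT cultures with serum against 39.4 without.

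Of 25 receptors for the matrix, 8 rose and 4 fell in TG and 7 rose and 4 fell in WT cultures. Sdc4, encoding syndecan-4, which works with integrins at focal adhesions, rose by 1.40 and 1.13, to the 92.5th percentile in TG cultures with serum against 82.2 without and to 92.1 in WT cultures against 84.1. The laminin-binding integrin Itga6 rose by 1.16 and 1.32, and the collagen-binding integrin Itga2 by 0.99 and 1.35. Of 21 collagen processing genes, 8 rose and 6 fell in TG and 6 rose and 6 fell in WT cultures. Pcolce2, an enhancer of procollagen cleavage, rose by 0.70 and 0.82, and Adamts3, a procollagen peptidase, fell (-0.80 and -0.90). Of 11 fibroblast activation genes, 3 rose and 2 fell in each genotype. The smooth muscle actin-binding gene Tagln rose by 0.67 and 0.52, and Ltbp1, a binding protein of latent TGF-beta, by 0.65 and 0.76.

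Cell type markers have the same background. In TG cultures 4 of 12 endothelial markers rose and 2 fell with serum, and in WT cultures 8 rose and 3 fell. Of 10 macrophage markers, 4 rose in TG and 3 in WT cultures and 0 fell in either at an adjusted p under 0.05. The mean percentile of the macrophage list was 58.6 to 66.7 in TG cultures with serum, against 48.3 to 63.6 in TG cultures without, and 56.7 to 66.9 in WT cultures with serum, against 51.1 to 66.7 without. Of 17 myocyte markers, 2 rose and 1 fell in TG and 1 rose and 3 fell in WT cultures. Of 17 fibroblast markers, which include 8 of the matrix genes, 1 rose and 7 fell in TG and 1 rose and 5 fell in WT cultures. In each genotype 1 of 9 smooth muscle markers rose and 4 fell, and 2 of 10 epicardial markers rose and 2 fell. The part of the cell type markers in the matrix changes was not tested.

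Matrix genes differed together between cultures of 1 group, in part. Over the 14 cultures with serum, each taken as its deviation from its own group mean, the median Pearson correlation over the 903 pairs of matrix genes was 0.68, against -0.03 between matrix genes and all other probe sets. Over the 11 cultures without serum it was 0.72, against -0.10. Within groups it was 0.51 in TG and 0.80 in WT cultures with serum and 0.45 in TG cultures without. Of the pairs, 25.5% were below 0 in TG and 9.19% in WT cultures with serum, and 24.7% in TG cultures without. A gene's median correlation with the others was under 0.5 for 17 of 43 genes in TG and 4 of 43 in WT cultures with serum, and for 25 of 43 in TG cultures without. These are descriptions, since the genes of a pair come from the same RNA and arrays.

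With serum the median correlation of a gene with the other 42 was highest for Loxl1 (0.88), an elastin crosslinking enzyme, and Col5a2 (0.88). It was 0.87 for Col1a1, Fn1 and Timp1. Lamc1 (-0.49) and Col6a2 (-0.32) ran against the rest, and Col15a1 (0.02) and Col4a2 (0.14) went with neither side. Without serum no gene had a median below 0, and the lowest were Mfap5 (0.31), Col6a2 (0.35) and Lamc1 (0.35).

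Of 12 relations of Col1a1 with a fixed gene, tested within groups of 6 or 7 cultures, 2 passed after adjustment. In WT cultures with serum Col1a1 followed Col1a2, the other chain of collagen I, with r = 0.97 (exact permutation p = 0.000794, adjusted 0.00595) and rho = 0.89 (exact p = 0.0123, adjusted 0.0738), and r was 0.98 without the 2 cultures farthest from the median. It followed Postn with r = 0.96 (exact permutation p = 0.000992, adjusted 0.00595) and rho = 0.96 (exact p = 0.00278, adjusted 0.0333), with r = 0.94 without those 2 cultures. In TG cultures with serum the same relations had r = 0.85 and 0.80 (exact permutation p = 0.0220 and 0.0218, both adjusted to 0.0586), and without serum r = 0.70 and 0.46 (exact permutation p = 0.225 and 0.343). Col1a1 and Col4a1, of the basement membrane, had r = 0.01 in TG and 0.57 in WT cultures with serum and -0.43 in TG cultures without (exact permutation p = 0.981, 0.184 and 0.417).

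Myh6, the alpha myosin heavy chain of the myocytes, had negative correlations with Col1a1 in all 3 groups, none past the adjusted test. With serum r was -0.73 in TG cultures (exact permutation p = 0.0389, adjusted 0.0778) and -0.84 in WT cultures (exact p = 0.0244, adjusted 0.0586), and -0.75 in TG cultures without serum (exact p = 0.0889, adjusted 0.152). Without the 2 farthest cultures the values were -0.35, -0.67 and -0.74. Over all matrix genes the median correlation with 17 myocyte markers was -0.61 in cultures with serum and -0.06 in cultures without, and that with 12 endothelial markers 0.46 and 0.34. With 10 macrophage markers it was 0.04 with serum and 0.54 without.

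**Figure D5:**
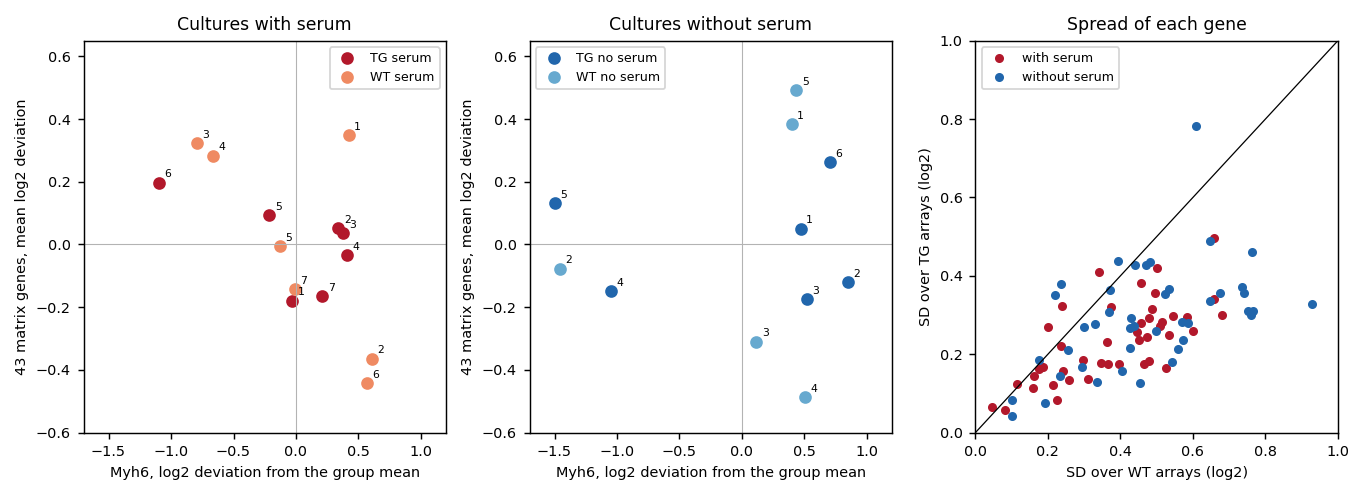
Left and middle, the mean log2 deviation of the 43 matrix genes from the group mean (y axis) against the log2 deviation of Myh6 (x axis) for each culture with and without serum, numbered by replicate. Right, the SD of each matrix gene over TG cultures (y axis) against that over WT cultures (x axis) in log2 units, with the line of equality, below which 38 of 43 genes lie in each set.

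The SD of the matrix genes over the cultures of a group was lower in TG cultures for 38 of 43 genes with serum and for 38 of 43 without, against 58.8% and 45.1% of all probe sets. The median SD was 0.24 in TG and 0.40 in WT cultures with serum, and 0.29 in TG and 0.45 in WT cultures without. For Postn it was 0.30 in TG and 0.68 in WT cultures with serum, and 0.31 in TG and 0.75 in WT cultures without. Col6a2 was an exception in both sets, with 0.32 in TG and 0.24 in WT cultures with serum and 0.44 and 0.39 without. The genes share their cultures and are not independent of each other. The mean deviation of the 43 genes ran from -0.18 to 0.20 in TG and from -0.44 to 0.35 in WT cultures with serum, and from -0.17 to 0.26 in TG and from -0.49 to 0.49 in WT cultures without. No test of this difference in spread was made.

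In 6 cultures Myh6 lay well below the rest of their group, with deviations of -1.10 in TG culture 6 and -0.79 and -0.67 in WT cultures 3 and 4 with serum, and of -1.05 and -1.50 in TG cultures 4 and 5 and -1.45 in WT culture 2 without serum. With serum all 3 had matrix genes above their group mean, by 0.20, 0.32 and 0.28, and without serum the values were -0.15, 0.13 and -0.08. The highest matrix deviation with serum, 0.35, was that of WT culture 1, where Myh6 lay above its group mean by 0.42. Without these 6 cultures, which were chosen after seeing the data, the SD was lower in TG cultures for 40 of 43 genes with serum (6 against 5 cultures) and for 42 of 43 without serum (4 against 4). The share of all probe sets was not computed for these smaller groups, so nothing particular to the matrix genes is read from these counts. The counts by serum were then 9 risen and 8 fallen in TG and 9 risen and 12 fallen in WT cultures, and 0 of 43 genes passed between TG and WT cultures in either set.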

How the data were processed

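Arrays were Affymetrix Mouse Gene 1.0 ST. The authors made the deposited values, log2 intensities of 35557 probe sets on 25 arrays, by Robust Multichip Analysis (RMA) in Affymetrix Expression Console 1.1. Whether the arrays with and without serum were normalized together, and the annotation used, are not given in the sources used here. Intensities have no counting depth, and the number of arrays limits the precision. All columns mapped to a sample, so 0 were left out. Probe sets were named through the platform annotation, with 1 symbol for 21789, several for 1621 and none for 12147, and only those with 1 symbol were named. Had a gene held several of its own, the brightest over 25 arrays would have stood for it, but each of the 43 held 1.

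TG and WT were compared in limma 3.58.1 (lmFit with 1 mean per group, eBayes) within each set of arrays. Serum and the interaction were fitted over 25 arrays after quantile normalization to 1 distribution, a function of within-array rank. P-values were adjusted by Benjamini-Hochberg over all probe sets, with calls at 0.05. R 4.3.3, statmod 1.5.0, Python 3.11.15, numpy 2.4.6 and scipy 1.17.1 were used, and the fits were tested on simulated data. Relations of Col1a1 were tested by exact two-sided permutation of pairings. Promoters were taken from RefSeq (GRCm38.p6). No coordinates of probe sets were used.

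The genes and lists were chosen with earlier results of these data known. All 43 genes could be named. Values of every culture (lowest, median and highest in groups over 5) were given for Col1a1, Col3a1, Fn1, Postn, the 5 genes of smallest p in each comparison of TG with WT, and the 4 largest rises and falls with serum. Of other lists, up to 3 genes of smallest p were named. Replicate numbers of the sample titles were tried as a block, and they could not decide whether cultures were paired by preparation. Alternatives covered scaling, rank scale, variance model, array weights, dim probe sets (mean log2 under 5), the probe set of a gene, the block and each array left out.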

Additional observations from a re-analysis of the deposited data

Results flagged for a closer look

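In 5 of 172 tests of 1 gene in 1 group of cultures, a single culture lay far from the others, and chance alone flags about 1 in 20 groups. Without any test of a cause, the values were as follows. In TG cultures with serum, culture 1 was low in Col3a1 (8.72 log2 units, others 9.09 to 9.29) and in Vcan (8.35, others 8.60 to 8.74). Culture 6 of the same group, the lowest of its group in Myh6, was high in Mmp14 (10.73, others 9.89 to 10.22). In WT cultures with serum, culture 1 was high in Col6a3 (7.24, others 6.54 to 6.74) and in Col15a1 (8.08, others 7.08 to 7.38).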

How the results depend on the processing

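Of the serum comparisons, 3 counts moved by over 1.5 times, all on the deposited log2 values, whose scale differs between the sets: 21 genes rose in TG cultures (10 by rank), 22 rose in WT cultures (9 by rank) and 29 passed in all in WT cultures (19 by rank). Of all 35557 probe sets, 27790 passed in TG and 27312 in WT cultures on that scale, against 21828 and 21158 by rank. The other 196 counts stayed within 1.5 times of the main count, which does not mean that the same genes passed. The 541 values of single genes kept their direction and their side of the threshold. They cover only the genes with the smallest p between TG and WT cultures or the largest rises and falls with serum. Over all 43 genes, 28 kept the sign of the serum difference in TG and 30 in WT cultures on the deposited log2 values. With each array left out in turn, 16 to 19 genes passed with serum in TG cultures (8 to 11 rose, 8 to 9 fell) and 18 to 22 in WT cultures (8 to 13 rose, 9 to 13 fell), and 0 passed each time for TG against WT in either set and for the interaction. In the serum runs 21000 to 21549 of all 35557 probe sets passed in TG and 20010 to 20933 in WT cultures. Cultures with the same number in the sample titles had correlations of their deviations of -0.36 to 0.06 for TG and WT with serum and -0.45 to 0.15 without. A figure of the study numbers the cultures without serum differently from these titles, so this check cannot decide whether cultures were paired by preparation. With the replicate number as a block, 0 genes passed for TG against WT with or without serum and 0 for the interaction, and for serum 17 passed in TG cultures (9 rose, 8 fell) and 18 in WT cultures (9 rose, 9 fell). With that block 21109 of all 35557 probe sets passed for serum in TG and 20118 in WT cultures. Signs of the small TG minus WT differences with serum depended on the choice: 34 of 43 were kept with arrays centred on their medians (median 0.02, all probe sets 0.03) and 30 of 43 without the 6 cultures low in Myh6 (median 0.04), an alternative chosen after seeing the data. Leaving out 1 culture kept 33 of 43 with serum (without WT 3, median 0.02), and without serum 23 (without WT 5, median 0.06) or 28 (without WT 1, median 0.05). Without the 6 cultures low in Myh6, 0 of 43 genes passed for TG against WT in either set and for the interaction.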
